A study of Mus musculus with 41 samples.

Results

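The 8 genes described are the Sox transcription factors Sox2, Sox4, Sox5, Sox6, Sox8, Sox9, Sox10 and Sox11, taken by symbol from a table of 47480 gene symbols that holds 20 genes of the family, Sry included. They were chosen as the family members best known outside endothelium. RNA was sequenced from 41 mouse mammary tumors on the Balb/c background. All 41 lacked p53. In 28 tumors, called PLK2null here, Plk2 was deleted as well, and 13 tumors, called p53null, carried intact Plk2. The PLK2null tumors arose from mammary epithelial cells of Plk2-/-; p53-/- mice after transplantation into wild-type hosts whose fat pads had been cleared, and the p53null tumors came from a bank made in a like way. Per the labels, tumors grew orthotopically in syngeneic hosts without treatment, so host vessels and stroma, which carry both genes, are part of each sample. Ages of the mice were not given in the sources used here.

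Of the 41 tumors, 4 were named claudin-low, a class of mammary tumor with little epithelial junction RNA. These were PLK2null-732, PLK2null-733 and PLK2null-743, and, among the p53null tumors, T11. The study's text names only PLK2null-743 and T11 of these, and the other two follow earlier work on these data. The study assigned the class by clustering the expression of these same tumors, so a claudin-low difference is not independent of how the class was drawn. Over 17208 genes the 3 PLK2null claudin-low tumors correlated with each other at 0.919 to 0.952, whereas the median tumor among the other 38 reached 0.606 with its nearest neighbour. The labels do not say which tumors descend from the same primary tumor, and p-values measure only the spread between these tumors.

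Sox proteins bind the minor groove of DNA through a shared HMG box and bend it. The family is divided into groups by sequence. Sox2 belongs to SoxB1 and keeps pluripotent and neural progenitor cells undifferentiated. Sox4 and Sox11 belong to SoxC, with Sox12, and act in progenitors and young neurons. Sox5 and Sox6 belong to SoxD, with Sox13, lack a transactivation domain of their own and pair with Sox9 in cartilage. Sox8, Sox9 and Sox10 form SoxE: Sox9 directs cartilage and testis formation, Sox10 directs neural crest, Schwann cell and melanocyte fates, and Sox9 and Sox10 have both been tied to progenitor states of the mammary gland. Col9a1 encodes a chain of type IX collagen and is a textbook target of Sox9 in cartilage.

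The sequence before Col9a1 is shown because the relation of Sox9 and Sox10 to this gene is followed below. Col9a1 (ENSMUSG00000026147.16) lies at chr1:24177610-24252684 on the forward strand of GRCm38. RefSeq (GRCm38.p6) gives 2 start sites for it, each shown with 250 bases before and 50 after the start, on the forward strand, at chr1:24177360-24177659 and chr1:24194953-24195252. Capitals mark a match to the Sox consensus of 7 letters, searched on both strands as NNCAANG with A or T at each N.
Col9a1, upstream start: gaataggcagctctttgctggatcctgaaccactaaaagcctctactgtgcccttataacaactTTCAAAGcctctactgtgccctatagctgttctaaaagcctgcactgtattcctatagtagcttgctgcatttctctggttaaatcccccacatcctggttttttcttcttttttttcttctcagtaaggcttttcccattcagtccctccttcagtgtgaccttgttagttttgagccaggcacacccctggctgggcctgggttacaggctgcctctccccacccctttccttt
Col9a1, downstream start: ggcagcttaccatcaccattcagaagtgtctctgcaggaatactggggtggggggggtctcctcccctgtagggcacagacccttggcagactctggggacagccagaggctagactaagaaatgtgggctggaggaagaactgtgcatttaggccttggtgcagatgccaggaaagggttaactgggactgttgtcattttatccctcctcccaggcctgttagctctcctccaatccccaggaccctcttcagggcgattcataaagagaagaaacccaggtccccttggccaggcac
The upstream window held 1 match, which begins 186 bases before the start (position -186), and the downstream window held none. The shorter words ACAAT and ACAAAG, which overlap the longer ones, were in neither window. Of 32851 RefSeq windows of the same length, 24.64% held the consensus of 7 letters, 31.02% held ACAAT and 18.71% held ACAAAG, so a match is common. The consensus of 7 letters was added after the windows had been seen. A match is a description of letters and not a binding site.

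Values are upper-quartile normalized counts, in which the 75th percentile of a tumor's nonzero values is 1000. One read was worth 0.388 to 0.817 of these units, at 29409685 to 70867918 fragments per tumor, and a value at or below 3 reads (1.16 to 2.45 units) is treated as not measurable. As a check of the labels, Plk2 was at 298 ± 149 (SD, n = 28) in PLK2null tumors and at 3436 ± 2104 (SD, n = 13) in p53null tumors. The groups overlapped, since the lowest p53null tumor was at 186.5 and the highest PLK2null tumor at 553, and the difference passed the test (-3.39 on the log2 scale, standard error 0.377, adjusted p = 1.30e-09 in limma). The titles of all p53null samples, and of no PLK2null sample, end in ROSEN and a number. The labels do not say what it marks, and whatever it marks cannot be told apart from genotype. Sox2 lies inside the longer Sox2ot on the same strand, Sox4, Sox5, Sox6 and Sox8 overlap genes on the opposite strand, and Sox5 also overlaps genes on its own strand. Whether counting used strand was not stated, so reads of these neighbours cannot be told apart from theirs. Sox9, Sox10 and Sox11 overlap no other gene in GENCODE vM21.

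Per kilobase of the longest transcript, Sox10 was the most abundant member in both genotypes, followed by Sox4, Sox9 and Sox8. In PLK2null tumors the median normalized count per kilobase was 4800 for Sox10, 1192 for Sox4, 358 for Sox9 and 203 for Sox8. The lower members were Sox5 at 57.3, Sox11 at 24.6, Sox6 at 12.8 and Sox2 at 7.40. In p53null tumors the medians per kilobase were 3276 for Sox10, 1203 for Sox4, 503 for Sox9, 113 for Sox8, 32.6 for Sox5, 22.5 for Sox11, 13.4 for Sox2 and 10.8 for Sox6. The upper order held within most tumors: Sox10 exceeded Sox4 in 25 of 28 PLK2null and in 12 of 13 p53null tumors, and the exceptions were the 4 claudin-low tumors. Sox4 exceeded Sox9 in 28 of 28 PLK2null tumors and in 11 of 13 p53null tumors. The step from Sox4 to Sox9 in PLK2null tumors, a mean log2 ratio of levels per kilobase of 2.14 (SD 1.41, n = 28), was the only step between neighbours in either order that exceeded its SD. Over the 37 tumors that were not claudin-low, the steps that exceeded their SD were Sox10 to Sox4 (1.83, SD 0.667), Sox4 to Sox9 (1.498, SD 0.970) and Sox8 to Sox5 (2.11, SD 1.88). For Sox5 over Sox11 the mean log2 ratio was 1.22 with an SD of 2.63 in PLK2null tumors and -0.42 with an SD of 2.39 in p53null tumors. In T11 the order differed, with Sox2 first at 1825 per kilobase and Sox10 at 6.38.

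**Figure D1:**
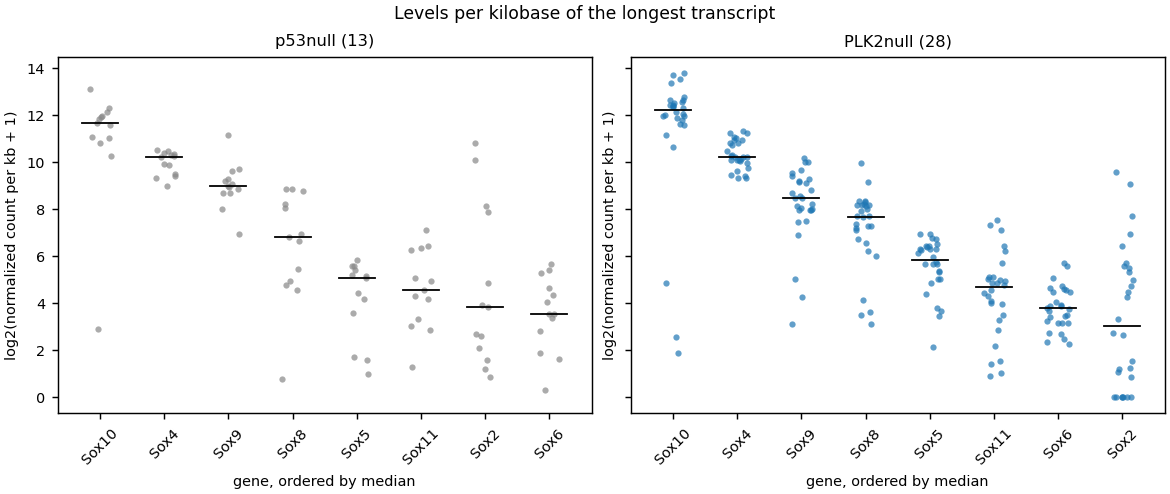
Level of each Sox gene in each tumor as log2(normalized count per kilobase of the longest transcript + 1), with 13 p53null tumors on the left and 28 PLK2null tumors on the right. Points are tumors, horizontal bars are medians and genes are ordered by median; Sox10 leads both panels, and its lowest points are the claudin-low tumors.

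Between genotypes, 1 of the 8 Sox genes passed the test, against 39.5% of all 17208 genes tested (24.3% higher and 15.3% lower in PLK2null tumors). This was Sox5, the SoxD partner of Sox9 in cartilage (ENSMUSG00000041540.16, chr6:143828425-144781977, reverse strand). Its normalized counts ran from 24.8 to 895 with a median of 415 in PLK2null tumors, and from 7.03 to 412 with a median of 236 in p53null tumors. Values overlapped widely, but 14 of 28 PLK2null tumors lay above the highest p53null tumor. The mean was 434 ± 250 (SD, n = 28) against 194 ± 138 (SD, n = 13), and Sox5 rose by 1.53 on the log2(value + 1) scale (standard error 0.489, adjusted p = 0.0108 in limma). By permutation of the genotype labels (2-sided, 100000 resamples) p was 0.00353. The labels mark no tumor as primary, but 7 PLK2null tumors bear numbers shown in the study's growth curves of primary tumors. With only these as PLK2null tumors the difference was 1.49 (adjusted p = 0.242 in limma).

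Sox6, the closest SoxD relative of Sox5 (ENSMUSG00000051910.13, chr7:115470872-116038796, reverse strand), ran from 32.8 to 449 in PLK2null tumors and from 2.16 to 436 in p53null tumors, with medians of 111 and 93.2. The groups overlapped almost completely, and the log2 difference of 0.37 (standard error 0.453) did not pass the test (adjusted p = 0.543 in limma). T11 held the lowest value of the 41 tumors.

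Among the SoxE genes, Sox10 (ENSMUSG00000033006.10, chr15:79154908-79165240, reverse strand) ran from 7.34 to 39196 in PLK2null tumors, with a median of 13343, and from 17.7 to 24502 in p53null tumors, with a median of 9107. Over all 41 tumors the log2 difference of 0.37 (standard error 0.959) did not pass the test (adjusted p = 0.789 in limma). The lowest values in each genotype were those of the claudin-low tumors. Without these 4 tumors Sox10 was at 16338 ± 9094 (SD, n = 25) in PLK2null tumors and at 10055 ± 5557 (SD, n = 12) in p53null tumors, and it rose by 0.69 (adjusted p = 0.0293 in limma). Sox5 was again called without these tumors, at 1.87. The 4 highest Sox10 values among the 25 PLK2null tumors belonged to tumors that each had the other 3 as nearest. These may share an origin and so may not count as 4 independent tumors, and a fit without them was not run. The share of all genes called without the claudin-low tumors is not given here.

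Sox9 (ENSMUSG00000000567.5, chr11:112782224-112787760, forward strand) ran from 31.6 to 4743 in PLK2null tumors, with a median of 1479, and from 499.5 to 9475 in p53null tumors, with a median of 2078. The lowest values were those of the 3 PLK2null claudin-low tumors and the groups overlapped elsewhere. The log2 difference of -0.83 (standard error 0.493) did not pass the test (adjusted p = 0.182 in limma). Sox8 (ENSMUSG00000024176.10, chr17:25565892-25570686, reverse strand) ran from 23.2 to 2965 in PLK2null tumors and from 2.16 to 1372 in p53null tumors. The groups overlapped, with medians of 608 and 338 and a log2 difference of 0.77 (adjusted p = 0.365 in limma).

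Sox4 and Sox11, of the SoxC group, did not pass the test between genotypes. Sox4 (ENSMUSG00000076431.4, chr13:28948919-28953713, reverse strand) varied least of the members, from 3086 to 12224 in PLK2null and from 2441 to 6939 in p53null tumors. Its 10 highest tumors were all PLK2null, but the medians were 5717 and 5770, and the log2 difference of 0.35 did not pass the test (adjusted p = 0.145 in limma). Sox11 (ENSMUSG00000063632.6, chr12:27334264-27342574, reverse strand) ran from 7.42 to 1533 in PLK2null tumors and from 12.3 to 1131 in p53null tumors. The medians were 205 and 187, with a log2 difference of -0.28 (adjusted p = 0.761 in limma). Sox2 (ENSMUSG00000074637.7, chr3:34650405-34652461, forward strand) was uneven in both genotypes. It was listed at 0 in 7 of 28 PLK2null tumors and exceeded 1000 in PLK2null-1974, PLK2null-1973, p53null-5329 and T11. Its medians were 15.2 and 27.5, and the log2 difference of -1.48 (standard error 1.12) did not pass the test (adjusted p = 0.305 in limma).

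The fixed gene lists were followed in the same genotype test, which 39.5% of all genes passed, 24.3% higher and 15.3% lower in PLK2null tumors. Of the 12 cartilage matrix genes tested, 1 fell, Cnmd (-2.49), against 15.3% of all genes. Col9a1 itself did not pass (-0.09, adjusted p = 0.962 in limma). Of 10 neural crest and Schwann cell genes tied to Sox10, 1 rose, the cadherin gene Cdh19 (2.42), against 24.3% of all genes. Of 8 genes tied to Sox4 and Sox11, Dbn1 (1.04) and Mex3a (0.65) rose, a share near that of all genes. In limma, 0 of 8 luminal progenitor genes, 0 of 3 pluripotency partners of Sox2, 0 of 2 melanocyte genes and 0 of 7 other Sox genes passed, and 0 of these had an unadjusted p under 0.05. Of the markers of other cells, 4 of 6 skeletal muscle, 3 of 7 basal and myoepithelial and 1 of 4 adipocyte markers were lower in PLK2null tumors, against 15.3% of all genes, and 2 of 5 leukocyte markers were higher, against 24.3%. These lists are short, and several of their shares lie near those of all genes. In limma 0 of 6 luminal epithelial, 0 of 6 fibroblast and 0 of 6 endothelium markers passed, with 1, 1 and 0 at an unadjusted p under 0.05. Their part in the Sox5 result was not tested.

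**Figure D2:**
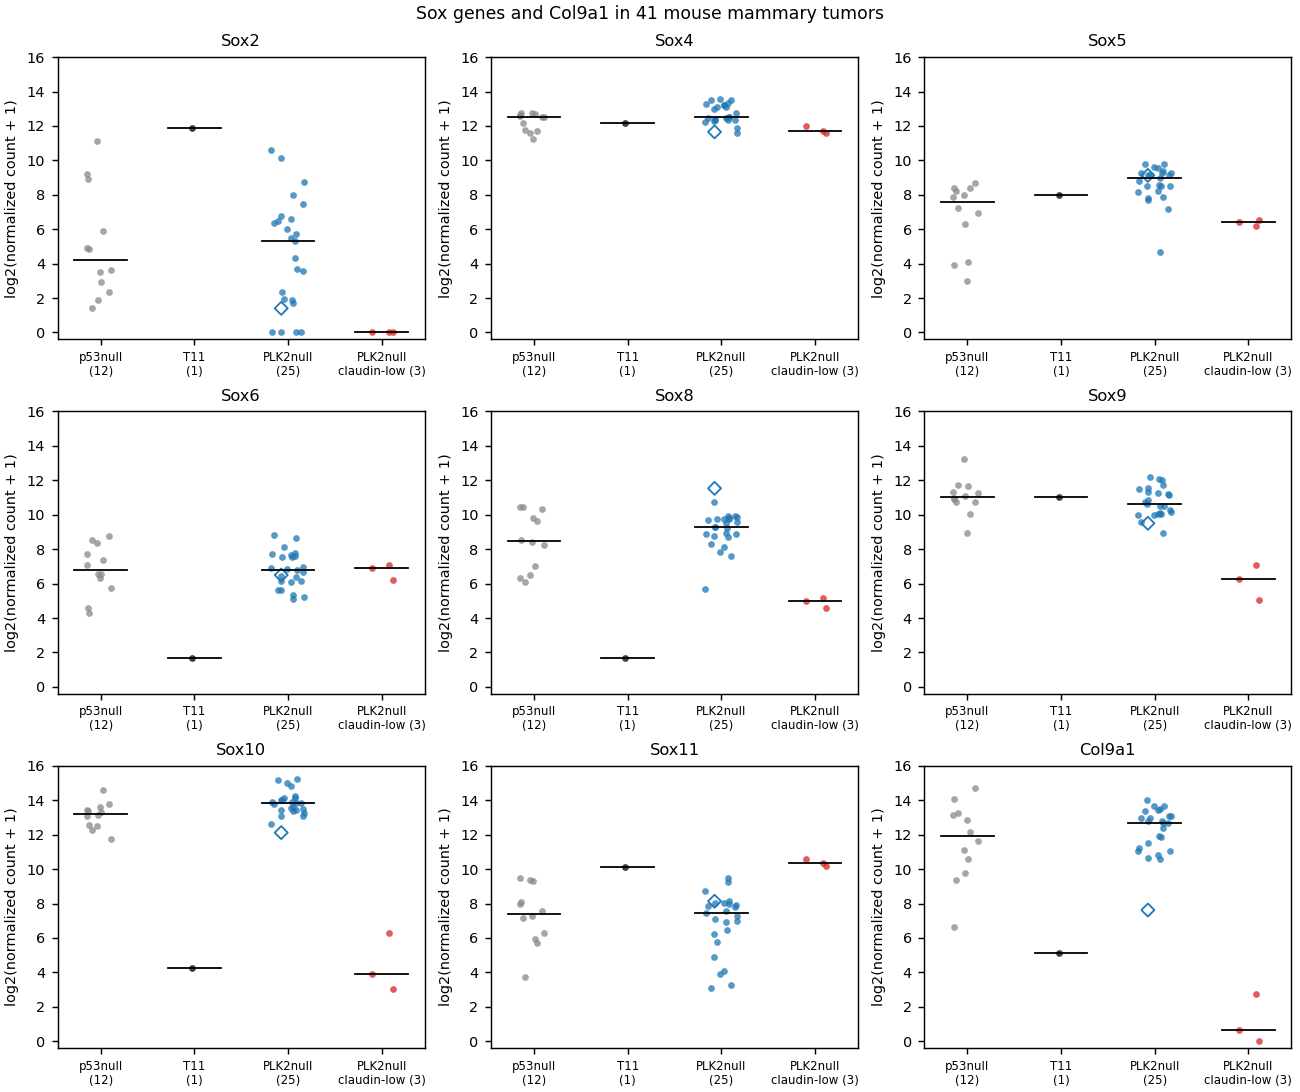
Log2(normalized count + 1) of the 8 Sox genes and Col9a1 in every tumor, by group: 12 p53null tumors, T11, 25 PLK2null tumors and the 3 PLK2null claudin-low tumors. Points are tumors, bars are medians (for T11, its 1 value) and the open diamond is PLK2null-7763; Sox10, Sox9, Sox8 and Col9a1 of the 3 claudin-low tumors lie below all 25 others, and Sox11 lies above them.

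Within PLK2null tumors, 7 of the 8 Sox genes differed between the 3 claudin-low tumors and the 25 others, against 37.3% of all 17153 genes tested. Of these, 6 fell, against 17.1% of all genes, and 1 rose, against 20.2%. Sox10, the most abundant member elsewhere, fell furthest, Sox9 and Sox8 fell too, and Sox11 rose above its level in every other PLK2null tumor. Sox6 did not pass the test. The share of all genes in which these 3 tumors lay wholly apart from the 25 others was not counted. A lack of overlap is thus only a description below.

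Sox10 was at 78.8 in PLK2null-732, 13.8 in PLK2null-733 and 7.34 in PLK2null-743. In the 25 others it ran from 4457 in PLK2null-7763 to 39196, with a median of 14643. The groups did not overlap, and the mean of the others was 491 times that of the claudin-low tumors. PLK2null-732 carried most of the claudin-low mean: without it the ratio was 1547 and the log2 difference -10.34, and without PLK2null-743 they were 353 and -8.71. With all 3 tumors the log2 difference was -9.39 (standard error 0.510, adjusted p = 3.65e-14 in limma), and the exact 2-sided permutation test gave p = 0.000305, the smallest that 3276 splits can give. T11, at 17.7, had the lowest Sox10 of the 13 p53null tumors, whose other 12 were at 3428 or more.

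Sox9 was at 132.5, 76.1 and 31.6 in PLK2null-732, PLK2null-733 and PLK2null-743, and between 496 and 4743 in the 25 others, with a median of 1568. No values overlapped. Sox9 fell by 4.60 on the log2 scale (standard error 0.524, adjusted p = 6.62e-08 in limma; exact permutation p = 0.000305). T11 did not share this: its Sox9 of 2078 was the median of the 13 p53null tumors. Sox8 was at 34.4, 30.6 and 23.2 in the same 3 tumors and between 49.6 and 2965 in the 25 others, again without overlap. It fell by 4.27 (standard error 0.647, adjusted p = 5.81e-06 in limma). In T11, Sox8 was at 2.16, the lowest of the 41 tumors.

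Sox11 was at 1330, 1533 and 1159 in PLK2null-732, PLK2null-733 and PLK2null-743, and between 7.42 and 710 in the 25 others, with a median of 172. All 3 claudin-low tumors lay above all others, and T11, at 1131, was the highest p53null tumor and the fourth highest of the 41. Sox11 rose by 3.49 (standard error 1.02, adjusted p = 0.00766 in limma; exact permutation p = 0.00336). The ratio of means was 6.76, from 1341 ± 187 (SD, n = 3) against 198 ± 176 (SD, n = 25). Sox4, of the same SoxC group, went the opposite way and by less. It was at 3378, 4158 and 3107, and 3 of the 25 others lay at or below the highest of these. It fell by 0.90 (standard error 0.331, adjusted p = 0.0324 in limma), a call that was lost when any 1 of the 3 tumors was left out (adjusted p = 0.0613 to 0.141 in limma). Per kilobase, Sox11 was second to Sox4 in each of the 3 tumors, at a median of 160 against 704.

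Sox5 was at 72.3, 86.3 and 93.2 in PLK2null-732, PLK2null-733 and PLK2null-743, and from 24.8 to 895 in the 25 others, of which only PLK2null-7748 was as low. It fell by 2.24 (standard error 0.614, adjusted p = 0.00489 in limma). Sox6 was at 135, 120 and 72.3, inside the range of the others (32.8 to 449), and its log2 difference was -0.07 (standard error 0.597, adjusted p = 0.943 in limma). In T11, Sox5 was at 255, rank 5 of the 13 p53null tumors, while Sox6 was at 2.16.

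Sox2 was listed at 0 in all 3 claudin-low PLK2null tumors, and also in 4 of the 25 others, where it reached 1555. The mean of the others (166) was at least 77.3-fold higher than the floor of 3 reads in a claudin-low tumor, taking the highest such floor. The fitted difference of -4.58 (adjusted p = 0.0485 in limma) depends on the pseudocount. With a pseudocount of 10 it was -2.30 (adjusted p = 0.145 in limma), and leaving out any 1 of the 3 tumors gave adjusted p = 0.132 to 0.134. T11 had the highest Sox2 of all 41 tumors, at 3754.

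**Figure D3:**
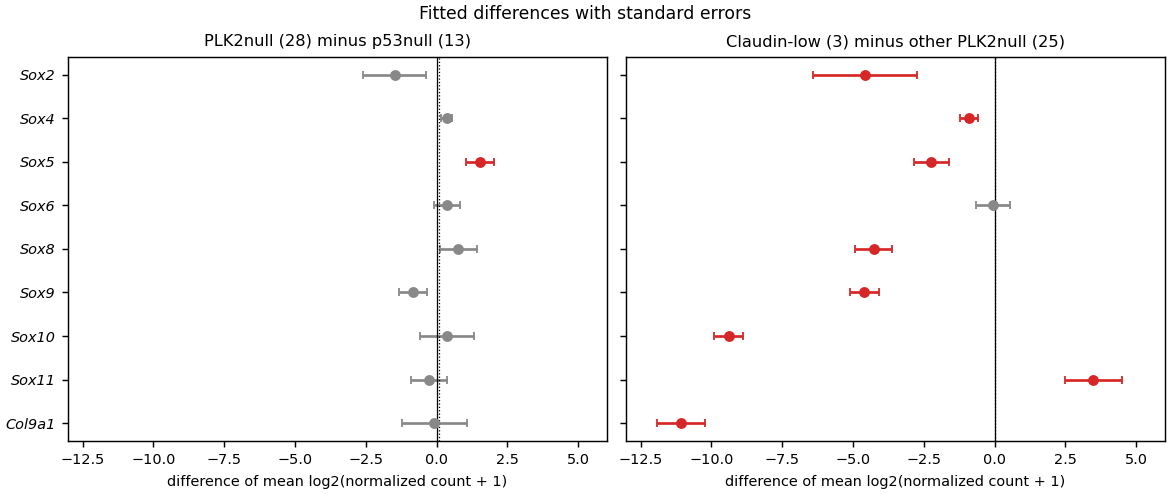
Fitted differences of mean log2(normalized count + 1) with their standard errors from limma, between 28 PLK2null and 13 p53null tumors on the left and between 3 claudin-low and 25 other PLK2null tumors on the right. Red points have an adjusted p below 0.05 and grey points do not, the solid line is 0 and the dotted line the median of all genes tested; 1 Sox gene is red on the left and 7 are red on the right.

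T11 was set beside the 3 PLK2null claudin-low tumors after the values had been seen. The claudin-low difference in PLK2null tumors minus the difference of T11 from the 12 other p53null tumors was -4.56 for Sox9 (standard error 1.09), -11.41 for Sox2 (standard error 3.65) and 5.09 for Sox6 (standard error 1.37). For Sox10 it was -0.50 (standard error 0.984) and for Sox11 0.67 (standard error 2.02). These values restate T11's levels given above, and no call is made from them, since T11 is 1 tumor and was taken to vary like the rest. With T11 among the claudin-low tumors and genotype as a covariate, 4 of 8 Sox genes were called, against 31.3% of 17208 genes. Sox10, Sox9 and Sox8 fell, against 15.2% of all genes, and Sox11 rose, against 16.1%.

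Markers of whole cell types moved with these results, in a comparison where 17.1% of all genes fell and 20.2% rose. All 6 luminal epithelial markers fell in the 3 PLK2null claudin-low tumors, led by Esrp1 (-10.65), Krt18 (-10.18) and Krt8 (-9.61), and their summed level was 55.9 to 316 there against 17767 to 121830 in the 25 others. Esrp1, an epithelial splicing factor, was at 0 in PLK2null-733 and PLK2null-743. All 6 endothelium markers rose, led by Tie1 (6.18) and Kdr (5.87), to a sum of 165580 to 186500 against 2572 to 78025. The top of that range was PLK2null-7763, which also had the lowest Sox10 and Col9a1 and the highest Sox8 of the 25. Its 3 nearest tumors over 17208 genes were the 3 PLK2null claudin-low tumors (r = 0.544 to 0.576). Endothelium markers in T11 summed to 6876, inside the range of the 12 other p53null tumors (2041 to 16462), and its luminal markers summed to 33789, below those 12 (62307 to 309650), most of it Krt18 (22508) and Krt8 (11057), with Epcam at 81.4 and Cdh1 at 61.9. The labelled class thus covered tumors with unlike markers. The part of these markers in the Sox results was not tested, and in bulk RNA fewer cells of a type and less RNA per cell cannot be told apart.

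The other 12 Sox genes were followed for the same reason. In the 3 claudin-low tumors Sox7, Sox17 and Sox18, the SoxF factors of endothelium, rose by 5.36, 4.05 and 4.98 on the log2 scale. Sox18 was at 9446, 8017 and 9308 there, against a median of 243 in the 25 others, of which PLK2null-7763 was highest at 3282. Sox7 was at 6798, 5551 and 4640 and Sox17 at 1245, 1035 and 1156, above all others as well. In T11, Sox7, Sox17 and Sox18 were at 87.4, 74.0 and 361. Sox15 (-3.66) and Sox21 (-4.52) fell, Sox12 of the SoxC group (0.19, adjusted p = 0.902 in limma) and Sox13 of the SoxD group (1.29, adjusted p = 0.153 in limma) did not pass the test, and the other 5 were too low to be tested. Sox13 reached 10306 and Sox12 reached 5144, both in p53null-2225L.

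**Figure D4:**
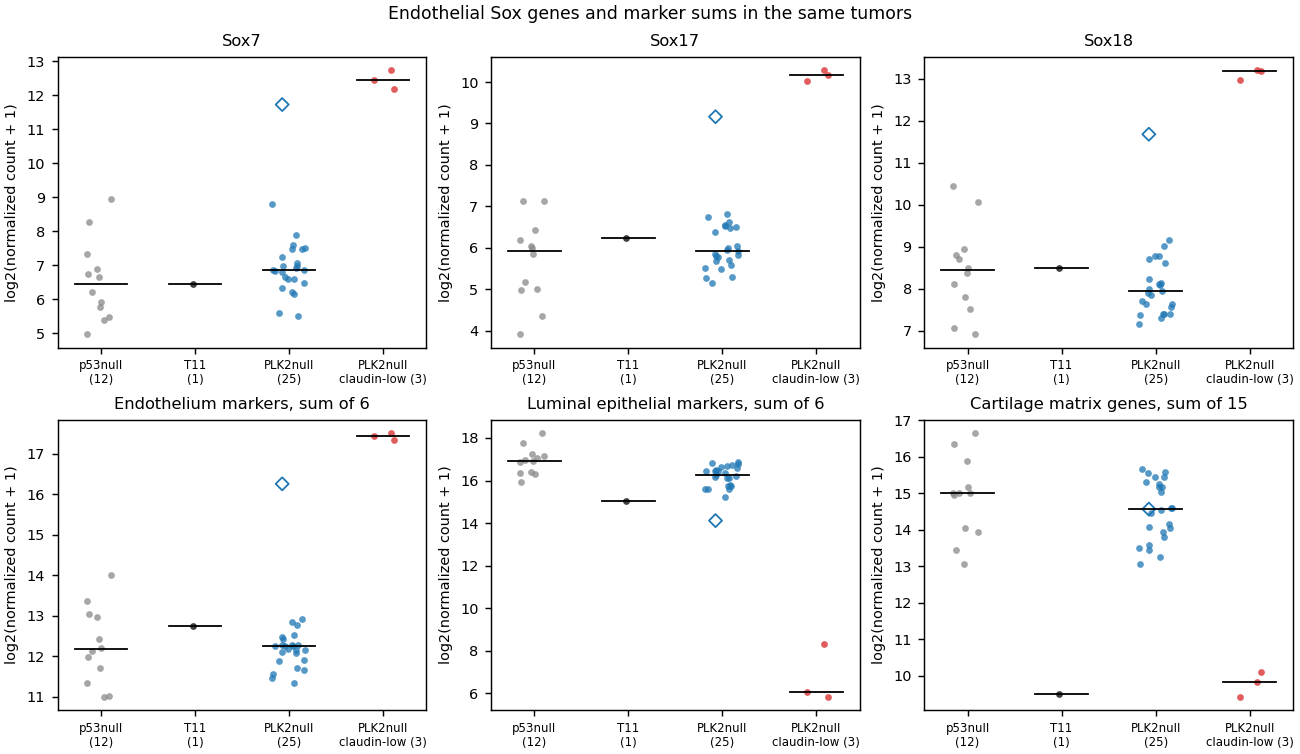
Log2(normalized count + 1) of the endothelial Sox genes Sox7, Sox17 and Sox18 and log2 of the summed normalized counts (+ 1) of 3 marker lists, in the same tumors and groups. Points are tumors, bars are medians and the open diamond is PLK2null-7763; the 3 PLK2null claudin-low tumors are highest for the endothelial genes and lowest for luminal markers, and T11 is not.

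Gene lists tied to the members moved unevenly in the claudin-low PLK2null tumors. Of 12 cartilage matrix genes tested of 15, 9 fell, against 17.1% of all genes, and 0 rose. Their median log2 difference was -5.28 against 0.02 over all genes. The largest were Col9a1 (-11.08), the small proteoglycan gene Snorc (-6.08) and Col9a3 (-6.00), another chain of type IX collagen. The size for Col9a1 is not exact, since 2 of its 3 claudin-low values were at or below the floor: it was -8.66 with a pseudocount of 10 and -11.88 without PLK2null-732. The list summed to 685 to 1098 against 8544 to 51718 in the 25 others. T11 was as low, at 720, with its Sox9 at the median of p53null tumors, but other genes made up its sum. In T11, Col11a1 (319) and Hapln1 (247) were highest, and Col11a2 and Matn4 were at 10.8 and 0.866. In the 3 PLK2null claudin-low tumors Col11a2 was at 221 to 382, Matn4 at 173 to 276 and Hapln1 at 0 to 1.43. Of 10 neural crest and Schwann cell genes tested, 4 fell and 2 rose, against 17.1% and 20.2% of all genes. Tfap2a (-7.91), a crest and epidermal transcription factor, Erbb3 (-6.61), a neuregulin receptor, and Cdh19 (-6.02) were among those that fell. Those that rose were Ednrb (5.28), the endothelin receptor B gene, and Mbp (2.37). Ednrb is also expressed by endothelium.

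Of 8 luminal progenitor genes, 6 fell, against 17.1% of all genes. Among them were Csn3 (-10.70), a milk casein, Cldn3 (-9.48), a tight-junction claudin, and Lcn2 (-8.82). The receptor gene Kit rose by 1.06. Of 8 genes tied to Sox4 and Sox11, 3 fell, against 17.1% of all genes, and 0 rose. Those that fell were the semaphorin Sema3c (-4.72) and the neuronal genes Dcx (-4.51) and Tubb3 (-2.90). Dbn1 and Tead2, at 0.73 and 0.43, did not pass. In limma 0 of 3 tested pluripotency partners of Sox2 and 0 of 2 tested melanocyte genes passed, and 0 had an unadjusted p under 0.05. T11 had the highest Klf4 of the 41 tumors (3953), as it had the highest Sox2, while Pou5f1 was listed at 0 there and Nanog was at 1.30. Of other markers, 3 of 7 basal and myoepithelial, 3 of 6 fibroblast and 1 of 6 skeletal muscle genes fell, against 17.1% of all. In the same comparison 3 of 5 leukocyte and 1 of 4 adipocyte markers rose, against 20.2% of all genes. The adipocyte marker was Fabp4 (7.05), which endothelium expresses too. These lists are short, and some of their shares lie near those of all genes.

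Col9a1 itself was at 5.73 in PLK2null-732, 0.599 in PLK2null-733 and 0 in PLK2null-743, and from 196 to 16731 with a median of 6560 in the 25 others. In p53null tumors it was at 34.6 in T11 and from 100.4 to 26529 in the 12 others. The claudin-low tumors were thus the lowest in each genotype, as they were for Sox10. In PLK2null-7763 Col9a1 was at 196 with Sox10 at 4457 and Sox9 at 725, and in p53null-5317 it was at 100.4 with Sox10 at 10757 and Sox9 at 1943. The lowest Col9a1 of the 12 thus stood beside Sox10 above their median of 9590.

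The relation was tested within p53null tumors and within the 7 primary PLK2null tumors, for 4 relations in all. For Sox10, Pearson's r of log2 values with Col9a1 was 0.640 in the 13 p53null tumors (permutation p = 0.0258, adjusted p = 0.0571) and Spearman's rho was 0.412 (permutation p = 0.162, adjusted p = 0.324). It rested on T11: without it r was 0.141 (permutation p = 0.661), and without T11 and p53null-2153L, the 2 tumors farthest from the median of Sox10, it was 0.120. In the 7 primary PLK2null tumors r was 0.817 (exact permutation p = 0.0286, adjusted p = 0.0571) and rho 0.750 (exact permutation p = 0.0663, adjusted p = 0.265). Without PLK2null-7763, whose nearest tumors were the PLK2null claudin-low tumors, r was 0.549 (exact permutation p = 0.226). Without PLK2null-7750 and PLK2null-7763 it was 0.320. The adjusted p of Sox10 was above 0.05 in both sets with the deposited scaling, and was 0.0418 in both by permutation after TMM scaling (r = 0.643 in p53null and 0.837 in primary PLK2null tumors).

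For Sox9, r with Col9a1 was -0.087 in the 13 p53null tumors (permutation p = 0.771, adjusted p = 0.771; rho -0.011, permutation p = 0.978). In the 7 primary PLK2null tumors it was 0.444 (exact permutation p = 0.321, adjusted p = 0.428; rho 0.286, exact permutation p = 0.556). Without the 2 tumors farthest from the median of Sox9, r was 0.049 and -0.0066. In the 25 PLK2null tumors that were not claudin-low, which include tumors that may share an origin, r was 0.689 for Sox10 and 0.097 for Sox9 as a description. The difference between those correlations was not tested.

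**Figure D5:**
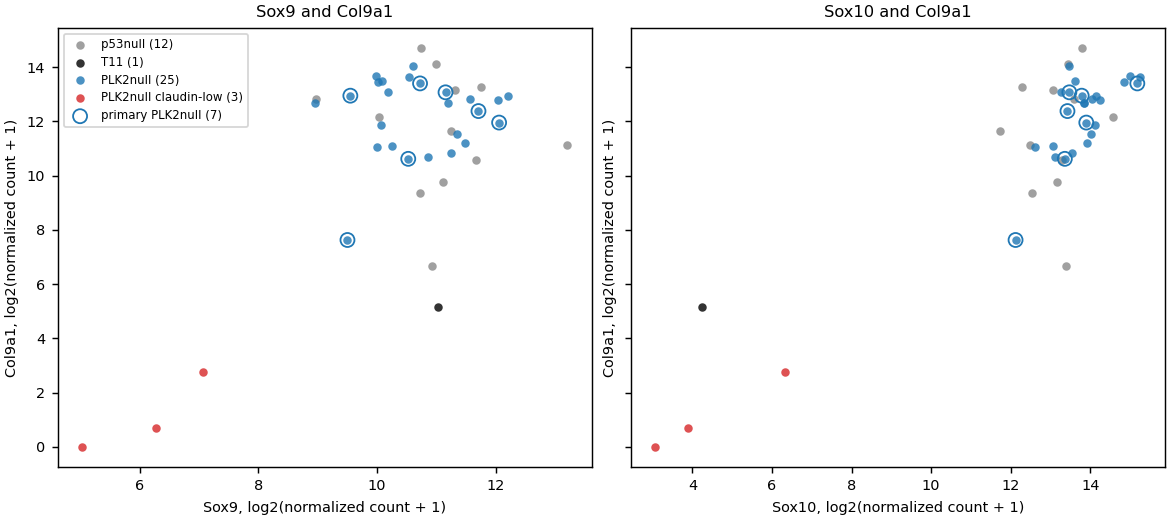
Col9a1 against Sox9 (left) and Sox10 (right) in 41 tumors, all as log2(normalized count + 1), with groups by colour and the 7 primary PLK2null tumors ringed. The 3 PLK2null claudin-low tumors form a cluster of their own at the lower left of both panels. On the Col9a1 axis T11 (34.6) lies above these 3 tumors and below all others. Its Sox10 is within the range of these 3 tumors, and its Sox9 is within the range of the other tumors.

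As a description over the 41 tumors, which include the claudin-low cluster and tumors that may share an origin, Sox10 ranked 15th of 17207 genes by correlation with Col9a1 (r = 0.891). Sox9 ranked 565th (0.660), Sox8 828th (0.586), Sox5 1905th (0.407), Sox4 2128th (0.382), Sox6 2683rd (0.327) and Sox2 4281st (0.204), and Sox11 was 16034th (-0.561). Over the 37 tumors that were not claudin-low, Sox10 was 386th (0.466), Sox5 592nd (0.423), Sox6 820th (0.389) and Sox9 7780th (-0.033). In the 12 p53null tumors other than T11, Sox6 had the highest r of the members, at 0.767 (58th), against 0.012 in the 25 PLK2null tumors. The order of the members thus depended on which tumors were used.

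Over all 41 tumors, the genes most like Sox10 were Gyltl1b (0.970), Grhl2 (0.961) and Dsg2 (0.960), and Col9a1 was 75th. For Sox9 they were Pkp1 (0.873), Tfap2a (0.861) and Cep170b (0.854), with Col9a1 256th. For Sox8 they were Hunk (0.821), Adamts18 (0.811) and Ano1 (0.797), with Col9a1 328th. Those for Sox5 were Greb1l (0.747), Gpr155 (0.7275) and Dusp4 (0.7225), and those for Sox6 were Slc38a3 (0.763), Slitrk2 (0.678) and Cdhr4 (0.663), with Col9a1 1308th and 830th. The SoxC genes had Hivep1 (0.788), Rnf44 (0.783) and Mex3a (0.783) nearest to Sox4, with Col9a1 1850th, and Lrrc8c (0.783), Fscn1 (0.739) and Relb (0.704) nearest to Sox11, with Col9a1 17034th. Nearest to Sox2 were Gsto1 (0.706), Krt13 (0.680) and the pseudogene Pgam1-ps2 (0.670), whose reads may come from its parent gene, with Col9a1 3537th.

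Outside the claudin-low tumors the members differed in how far they varied. Over these 37 tumors the ratio of the highest to the lowest value was 5.01 for Sox4, 11.4 for Sox10, 19.1 for Sox9 and 24.5 for Sox6. It was 59.7 for Sox8, 96.3 for Sox11 and 127 for Sox5. Sox2 was listed at 0 in 4 of these tumors and reached 2256. The 4 highest Sox10 values, 39196, 37198, 32863 and 29684, belonged to PLK2null-1986, PLK2null-7750, PLK2null-1985 and PLK2null-1984. Each of these had the other 3 as its nearest tumors over 17208 genes and the labels do not say whether they share an origin. They also held high Sox4 (9384 to 12224) and Sox5 (752 to 895) and low Sox11 (7.42 to 15.8).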

How the data were processed

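RNA of 41 tumors was sequenced as paired reads on an Illumina HiSeq. The authors aligned reads to mm10, obtained gene-level counts with Salmon and divided them by each tumor's upper quartile. The deposited values are a signal on a linear scale, in which each tumor's nonzero values have their 75th percentile at 1000. The submitters' processing notes name STAR 2.7.6a, Salmon 1.4.0, Picard 2.22.4 and SAMtools. The annotation used for counting was not given in the sources used here.

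Whole reads (tolerance 0.1 read) accounted for 74.2 to 80.4% of the nonzero values per tumor, too few to recover counts, so no count model was used. Floors cover counting error only, and a fold change on the log2(value + 1) scale understates that of low genes. The filter kept genes whose mean over the fitted tumors reached 10. Tests used limma 3.58.1 (R 4.3.3) on the log2(value + 1) scale, adjusted by Benjamini-Hochberg over all genes kept, with a threshold of 0.05. All 8 members passed this filter in both fits. Single genes and correlations were tested with 2-sided permutation tests, exact for 3 against 25 tumors and for 7 tumors and with 100000 resamples otherwise. The limma tests were also run on simulated data with known changes. Other steps used Python 3.11.15, numpy 2.4.6, pandas 2.3.3, scipy 1.17.1 and matplotlib 3.10.9. Gene positions and lengths came from GENCODE vM21 (GRCm38), and 2 list genes, Cnmd and Snorc, were matched through older symbols.

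Genotype came from the sample labels, and none of the labels mark subtype or primary tumors. The study's text names PLK2null-743 and T11 as claudin-low. The other two were taken from earlier work on these data, and the 7 primary tumors by number from a picture of growth curves. Named genes were the 8 members and Col9a1, other Sox genes above 1000 in any tumor, the 2 to 4 members of each of 14 lists with the largest differences, the 3 genes most like each member (predicted genes left out) and Plk2. Genes outside this rule (Epcam, Cdh1, Kit, Klf4, Mbp, Pou5f1, Nanog, Tead2, Sox15 and Sox21 among them) were named after their values were seen. Members and lists were chosen with earlier results of these data known. Alternatives were other pseudocounts, filters and scalings, a limma trend, and sets of tumors left out.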

Additional observations from a re-analysis of the deposited data

Results flagged for a closer look

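Among the 7 primary PLK2null tumors, 3 of the 9 genes tested (the 8 Sox genes and Col9a1) held a tumor set apart from the others, with a gap above 0.568 of the range (the limit of Dixon's test). The gaps were taken on normalized counts, and not on the log2 scale used for the fits. About 1 in 20 groups of normally distributed values pass this limit, and whether that rate holds for these counts was not tested. Each of the 3 flagged values was the highest of its 7, and no call is made from them. Sox10 stood apart in PLK2null-7750, at 37198, with a gap of 0.669 of the range. Sox8 stood apart in PLK2null-7763, at 2965 (0.784 of the range), and Sox6 in PLK2null-7747, at 449 (0.647 of the range).

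T11 was flagged against the 3 PLK2null claudin-low tumors for Sox9, Sox2 and Sox6. By value it lay outside the range of these 3 tumors for the other Sox genes too, except Sox10. On the log2 scale, the claudin-low difference in PLK2null tumors minus that of T11 from the other p53null tumors was -4.56 for Sox9, -11.41 for Sox2 and 5.09 for Sox6 (3.29 with a pseudocount of 10). The contrast was set up after T11's values had been seen and has 1 tumor on its p53null side, so it says nothing of p53null claudin-low tumors in general and no call rests on it.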

How the results depend on the processing

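Between genotypes, 1 Sox gene was called under every scaling, filter, pseudocount and trend. With only the 7 primary PLK2null tumors, limma called 0, and 0 had an unadjusted p under 0.05. Without the 4 claudin-low tumors it called 2, Sox5 and Sox10. The shares of all genes called under the alternative settings are not given in this section. These counts are thus not read as results about the Sox genes. Between claudin-low and other PLK2null tumors the count was 6 or 7 under those settings and 7 without PLK2null-7763. It was 5 whichever of the 3 claudin-low tumors was left out, where Sox2 and Sox4 lost their calls, and 4 with T11 and genotype as a covariate. Without the filter on the mean, Sox2 alone lost its call (adjusted p = 0.0668 in limma). Of 108 alternative values of the 9 genes in this comparison, 97 kept their direction where called and their side of the threshold and 11 lost the call. The cause was not tested.

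With TMM scaling, r of Sox10 with Col9a1 was 0.643 in p53null and 0.837 in primary PLK2null tumors (adjusted p = 0.0418 by permutation for both). Pooled sets that span the separate claudin-low cluster gave 0.830 (Sox9) and 0.965 (Sox10) over all 28 PLK2null tumors and 0.660 and 0.891 over all 41. The 25 PLK2null tumors not claudin-low gave 0.689 for Sox10, as a description only, since tumors among them may share an origin. Merged exon lengths exchanged 2 members, Sox5 and Sox11, in the p53null order. Depth limits what can be said of Sox2 and Col9a1 in the claudin-low PLK2null tumors, where 3 and 2 of 3 values were at or below the floor.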
